A study of Mus musculus with 4 samples.

Results

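The 10 genes described here belong to the integrated stress response, and they were taken by symbol from the 24411 genes that each deposited file lists: Atf4, Ddit3, Atf3, Asns, Psat1, Phgdh, Ppp1r15a, Trib3, Chac1 and Slc7a11. Their RNA was measured in mouse morulae of the ICR strain, an outbred stock, made by in vitro fertilization. Both groups were electroporated at the 1-cell stage (3 hours post insemination, hpi) and cultured in KSOM with bovine serum albumin to 72 hpi. The control group received control siRNA (siControl, 2 libraries) and the other siRNA against Pwp1 (siPwp1, 2 libraries). Each library pooled 10 embryos, so differences between single embryos are not seen, and with 2 libraries a group the spread is poorly known. No untreated or non-electroporated embryos were analysed here, so the levels below are those of embryos that had all been electroporated.

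The integrated stress response starts when any of 4 kinases phosphorylates the translation initiation factor eIF2, which lowers the exchange activity of eIF2B and slows protein synthesis. Translation of the transcription factor ATF4 then rises, and ATF4, with C/EBP-family partners, switches on genes for amino acid uptake and synthesis, for redox balance and, when stress lasts, for cell death through CHOP, the product of Ddit3. ATF4 is controlled mainly in translation, so the level of its RNA alone does not tell its activity.

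Of the 10 genes, 9 passed the filter on low counts and could be tested, and Atf3 could not. edgeR called 0 of the 9 higher and 0 lower in siPwp1 (Benjamini-Hochberg adjusted p = 0.9998 for each, over 13585 genes), where 0% of all genes tested were called in either direction. At unadjusted p under 0.05 there was 1, Ddit3, against 2.66% of all genes, and DESeq2 called 0 of the 9 against 0.324% of all genes. Ddit3 was 2.41-fold higher in siPwp1. Atf4, Psat1 and Asns had fitted folds of 0.992, 1.02 and 0.996, each with a 95% interval that reaches beyond 1.5-fold in both directions.

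The expected counts of the 4 libraries summed to between 28981358 and 48765229. Pwp1, the targeted gene, which encodes a WD-repeat protein, was at 215.4 and 364.9 CPM (read counts scaled to library size by TMM) in siControl, against 36.9 and 37.2 CPM in siPwp1. This 7.83-fold difference had an adjusted p = 0.22 with edgeR as used throughout and 1.47e-12 with DESeq2. edgeR called Pwp1 with no filter on low counts (adjusted p = 5.04e-16) and with the replicate number as a block (2.08e-04). It did not call Pwp1 at 5 CPM in at least 2 libraries (adjusted p = 0.207) or with DESeq2 size factors (0.224). Nor did limma on log2(TPM + 1) or log2(TPM + 0.1), with TPM as defined below (adjusted p = 0.306 and 0.597). With 1 library left out, the log2 fold change of Pwp1 ran from -3.30 to -2.54. The 12 morula markers fixed for the check, such as Pou5f1, Nanog and Cdx2, had counts in every library. Their summed level was 8370 and 6130 CPM in siControl, against 6113 and 5188 CPM in siPwp1, with Dppa5a alone at 4393 to 6882 CPM. Of the 12, 10 had a negative and 2 a positive estimate, and edgeR called 0. In both siPwp1 libraries 4 were lower (33.3%, against 14.1% of all genes) and 0 were higher (against 14.7% of all genes). Within both groups several of the 12 markers differed widely by replicate number. The trophectoderm gene Krt8 was at 192.7 and 15.6 CPM under siControl, and under siPwp1 at 116.4 and 21.3 CPM. The trophectoderm genes Gata3 and Cdx2 were likewise more than 2-fold lower in replicate 2 of each group. So was the pluripotency gene Sox2, at 8.16 and 0.205 CPM under siControl, and under siPwp1 at 0.732 and 0.232 CPM. The libraries numbered 1 and 2 thus stand apart within each group, and not in trophectoderm genes alone. Of 10 cumulus and granulosa cell markers, 6 had any count. Cyp19a1, Ptx3, Inhba and Wt1 were at 0 in every library, and the sum was 5.45 and 10.7 CPM for siControl, 11.7 and 19.1 CPM for siPwp1, with Amhr2 alone at 5.24 to 19 CPM. Of 8 leukocyte and blood markers, 6 had any count and Hbb-bs and Tyrobp had none, with sums of 12.3 and 34.8 CPM for siControl, 43.96 and 44.9 CPM for siPwp1, and Hba-a2 alone at 11.3 to 39.3 CPM. Of 6 sperm markers 5 had a count, with Akap4 at 0 and sums of 1.21 CPM or less in every library. The cumulus and blood sums were higher in both siPwp1 libraries, as Ddit3 was, and their part in any difference given here was not tested. In these bulk libraries, fewer cells with a transcript and less of it per cell cannot be told apart.

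The levels of the 10 genes spanned 4 orders of size when compared per transcript length, in TPM (the share of each library’s transcripts). Psat1 stood far above the others, at 384.4 and 574 TPM in siControl and 412.2 and 568 TPM in siPwp1, which placed it between rank 336 and rank 447 of the 24411 genes. Phgdh and Atf4 followed, with means over the 4 libraries of 95.1 and 75.7 TPM. The next were Asns at 33.5 TPM, Ddit3 at 13.6 TPM and Ppp1r15a at 12.04 TPM. Trib3 averaged 1.78 TPM, Chac1 0.688 TPM, Atf3 0.128 TPM and Slc7a11 0.0475 TPM. In that order, the neighbours with no overlap between their library values were Psat1 and Phgdh, Atf4 and Asns, Ppp1r15a and Trib3, and Trib3 and Chac1. The values of Phgdh and Atf4, of Asns and Ddit3, of Ddit3 and Ppp1r15a, and of Chac1 and Atf3 overlapped in level, as did those of Atf3 and Slc7a11. The serine synthesis genes were thus the most abundant in both groups, and Chac1, Atf3 and Slc7a11 the least.

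**Figure D1:**
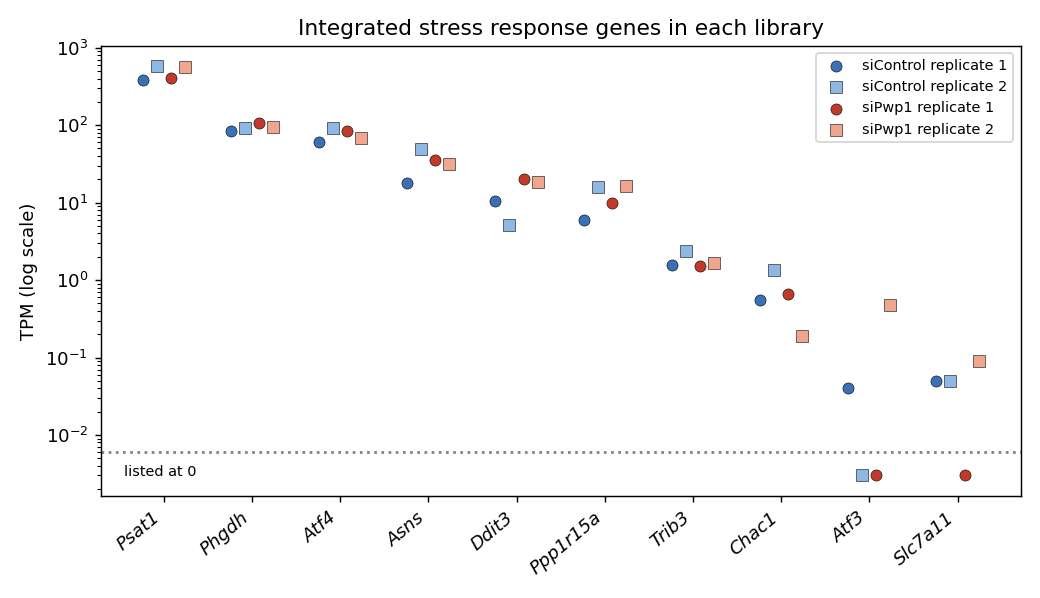
TPM of the 10 genes (log axis) in each of the 4 libraries, ordered by mean, with values listed at 0 drawn under the dotted line. Psat1 lies between 384.4 and 574 TPM in all libraries, Ddit3 is the gene whose 2 siPwp1 libraries stand clearest above both siControl libraries, and Atf3 is listed at 0 in 2 libraries.

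ATF4 and a C/EBP partner bind a composite element. All 10 genes matched the RefSeq promoter table (GRCm38.p6; 250 bases before to 50 after each start site), and both strands were searched for TGATGNAA, with overlapping matches allowed. The element was found at 5 of the 10 genes, Asns, Atf3, Chac1, Slc7a11 and Trib3, and in 3.97% of the 32851 promoters of that length. A match describes letters only and does not show that a factor binds. The 30 bases around each match are shown because these 5 genes share an element but not a level: Asns averaged 33.5 TPM and Slc7a11 0.0475 TPM. Distances are counted from the RefSeq start sites, and the gene spans given below, from GENCODE M21, can start elsewhere. By those spans the Trib3 match lies before the gene, and the Asns and Atf3 matches lie within theirs. Each is written 5′ to 3′ on the strand of its gene, with the element, or TTNCATCA where it lies on the other strand, in capitals.
Asns, chr6:7693214-7693243, minus strand, element starting 23 bases before the start site: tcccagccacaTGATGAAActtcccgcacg
Atf3, chr1:191183425-191183454, minus strand, 110 bases before: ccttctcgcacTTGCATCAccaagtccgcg
Chac1, chr2:119351038-119351067, plus strand, 193 bases before: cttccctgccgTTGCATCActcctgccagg
Slc7a11, chr3:50443651-50443680, minus strand, 66 and 47 bases before: cTGATGCAAacctggagaatTTGCATCAtc
Trib3, chr2:152344028-152344057, minus strand, at base 15 of the transcript: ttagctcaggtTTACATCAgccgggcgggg
The Slc7a11 pair stands in opposite orientations, and Atf3, Chac1 and the downstream Slc7a11 copy hold the same 8 letters. The upstream Slc7a11 copy holds those 8 letters as read on the other strand.

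Of the transcription factor genes tested, Ddit3 and Atf4, Ddit3 had the larger difference between the groups. Ddit3 encodes CHOP, a C/EBP-family factor that ATF4 induces and that promotes cell death under lasting stress. The gene spans chr10:127290774-127296288 (plus strand, GRCm38) and has up to 4 exons per transcript. In siControl replicates 1 and 2 it had 185 and 127 counts (6.42 and 2.89 CPM), and in siPwp1 replicates 1 and 2 it had 602 and 315 counts (11.9 and 10.5 CPM). Both siPwp1 libraries were above both siControl libraries, and the siControl libraries lay further apart than the siPwp1 libraries. Means were 4.65 ± 2.50 and 11.2 ± 1.03 CPM (SD, n = 2). The log2 fold change was 1.27 (SE 0.506), with a 95% interval of 1.05-fold to 5.54-fold higher, an unadjusted p = 0.0412 and an adjusted p = 0.9998 with edgeR. Ddit3 thus did not pass over all genes, and an exact permutation test of 2 against 2 libraries cannot go below p = 0.333. It was the 1 gene of the 9 that was fitted at 2-fold or more higher and separated, where 6.31% of all genes were. Without siControl replicate 1 its log2 fold change was 1.95, without siControl replicate 2 it was 0.80, and in neither fit was it called. The last 68 bases of Ddit3 overlap the end of Mars, the methionyl-tRNA synthetase gene, on the other strand. Mars was at 47.9 and 42.1 CPM under siControl, and under siPwp1 at 47.6 and 29.8 CPM, so neither siPwp1 library was above the siControl range.

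Atf4, the central factor of the response, did not separate the groups. The gene spans chr15:80255184-80257541 (plus strand) and overlaps no other gene. It stood at 75.2 and 104.4 CPM under siControl, and under siPwp1 at 100.7 and 77.5 CPM, and the 2 siPwp1 values fell inside the siControl range. The log2 fold change was -0.01 (SE 0.292; 95% interval 0.614-fold to 1.60-fold; edgeR adjusted p = 0.9998). Set against Atf4 in the same library, which sets scaling between libraries aside, Ddit3 had a TPM ratio of 0.173 and 0.0558 in siControl and 0.245 and 0.273 in siPwp1. This ratio too was higher in both siPwp1 libraries.

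Atf3, a stress-induced relative of ATF4, was barely counted. The gene spans chr1:191170296-191218039 (minus strand). It had 2 and 0 counts in the siControl libraries and 0 and 23 in the siPwp1 libraries. The 23 counts of siPwp1 replicate 2 are 0.764 CPM, with a 95% Poisson interval of 0.484 to 1.15 CPM that covers counting error only. In the library of the same group with 0 counts, the one-sided limit for a count of 0 is 3 counts, or 0.0594 CPM. The group difference therefore rests on 1 library, and no fold is given.

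None of the amino acid synthesis genes passed the test. Asns makes asparagine from aspartate and is a classic ATF4 target, at chr6:7675169-7693254 (minus strand). It stood at 30.7 and 77.3 CPM under siControl, and under siPwp1 at 58.3 and 49.4 CPM. The siControl libraries differed 2.52-fold and enclosed both siPwp1 libraries, with means of 54.04 ± 32.9 and 53.8 ± 6.26 CPM (SD, n = 2). The log2 fold change was -0.0059 (SE 0.441; 95% interval 0.482-fold to 2.06-fold; edgeR adjusted p = 0.9998).

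Phgdh and Psat1 encode the first and the second enzyme of serine synthesis from a glycolytic intermediate. Phgdh, at chr3:98313170-98339990 (minus strand), stood at 138.6 and 140.4 CPM under siControl, and under siPwp1 at 171.03 and 145.6 CPM. Both siPwp1 libraries were higher, with a fitted 1.13-fold (95% interval 0.762-fold to 1.69-fold; edgeR unadjusted p = 0.475), and it had the narrowest interval of the 9 genes. Psat1, at chr19:15904678-15947337 (minus strand), stood at 746.9 and 1033 CPM under siControl, and under siPwp1 at 777.3 and 1030.1 CPM. The groups overlapped, and both libraries numbered 2 were above both numbered 1. The log2 fold change of Psat1 was 0.02 (SE 0.269; 95% interval 0.652-fold to 1.58-fold).

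Psat1 RNA exceeded that of the other serine enzymes per length. The TPM ratio of Psat1 to Phgdh was 4.54 and 6.20 in siControl and 3.83 and 5.95 in siPwp1. Against Psph, the phosphatase of the last step, it was 14.6 and 29.8 in siControl and 16.4 and 23.9 in siPwp1. Both ratios were above 3 in every library, and the groups overlapped in both.

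Ppp1r15a and Trib3 encode feedback brakes. Ppp1r15a is GADD34, which brings a phosphatase to eIF2 and so ends the response, and its gene spans chr7:45522916-45526268 (minus strand), with 717 bases shared with Tulp2 on the other strand. It stood at 12.4 and 31.5 CPM under siControl, and under siPwp1 at 20.1 and 32.02 CPM. The groups overlapped, and within each group replicate 2 was the higher, 2.53-fold in siControl and 1.59-fold in siPwp1. The log2 fold change was 0.24 (SE 0.501; 95% interval 0.519-fold to 2.7-fold).

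Trib3, a pseudokinase that binds ATF4 and CHOP and dampens them, spans chr2:152337422-152344032 (minus strand). It stood at 2.85 and 4.03 CPM under siControl, and under siPwp1 at 2.65 and 2.82 CPM. Both siPwp1 libraries were lower, but by as little as 2.85 against 2.82 CPM (82 and 85 counts), within counting error, and under DESeq2 size factors the groups overlapped. The log2 fold change was -0.33 (SE 0.54; 95% interval 0.327-fold to 1.94-fold).

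Chac1 and Slc7a11 act on glutathione, and both had few counts. Chac1, which degrades glutathione and is among the most inducible targets of ATF4 and CHOP, spans chr2:119351229-119354381 (plus strand). It had 21 and 73 counts in siControl (0.729 and 1.66 CPM) and 43 and 7 counts in siPwp1 (0.851 and 0.232 CPM). The lowest value was that of siPwp1 replicate 2, whose 95% Poisson interval was 0.0935 to 0.479 CPM, while siPwp1 replicate 1 lay between the siControl libraries. The fitted log2 fold change was -1.13 (SE 1.08; edgeR unadjusted p = 0.334), with an interval from 0.0769-fold to 2.73-fold. It was -0.41 without siControl replicate 2 and -2.35 without siPwp1 replicate 1. Ddit3, known to drive Chac1 together with ATF4, was higher in the group where the Chac1 mean was lower, and both siPwp1 libraries had Ddit3 above 10 CPM.

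Slc7a11 is the light chain of the cystine importer, and its gene spans chr3:49892526-50443614 (minus strand). The span holds 3 overlaps with genes on the other strand, the longest of 8812 bases with Gm37854. Slc7a11 had 12 and 17 counts in siControl (0.416 and 0.387 CPM) and 2 and 22 counts in siPwp1 (0.0396 and 0.731 CPM). The 2 siPwp1 libraries lay on either side of both siControl libraries. The fitted interval ran from 0.071-fold to 12.5-fold, so this depth could show no difference of ordinary size. Its heavy chain partner Slc3a2, shared with other transporters, was abundant at 97.4 and 236.5 CPM under siControl, and under siPwp1 at 201.5 and 211.2 CPM.

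**Figure D2:**
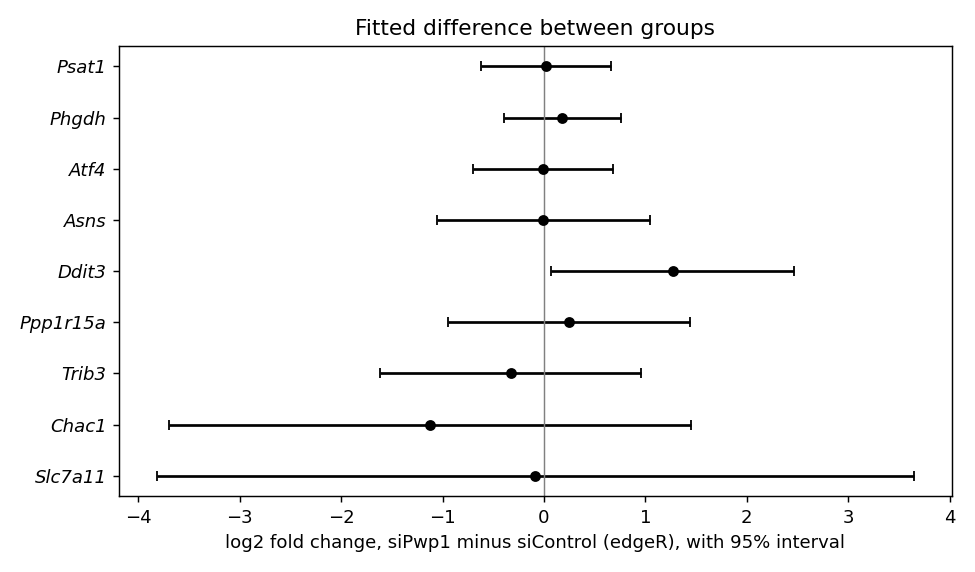
Fitted log2 fold change of the 9 tested genes, siPwp1 minus siControl, with points for the edgeR estimate and bars for the 95% interval. The interval of Ddit3 lies above 0 before adjustment for many genes, those of the other 8 include 0, and those of Chac1 and Slc7a11 are the widest.

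Read as a group, the 9 tested genes centred on a median log2 fold change of -0.0059, against -0.0010 over all genes. Of these genes 4 had a positive and 5 a negative estimate, and on log2 TPM those of Atf4 and Asns turned from negative to positive. Both siPwp1 libraries were above both siControl libraries for 2 genes, Ddit3 and Phgdh, where 14.7% of all genes did so. They were below for 1 gene, Trib3, where 14.1% of all genes did so. These shares are close to those of all genes.

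Differences between replicates of a group were larger than differences between groups for most of these genes. For 8 of the 9, the larger of the 2 within-group log2 differences exceeded the log2 ratio of the group means, and Ddit3 was the exception. The same held for 82.3% of the 12800 genes with a count in every library. In siControl, replicate 2 was higher for 7 and lower for 2 of the 9. Of these genes 4 differed by 2-fold or more (28.2% of all genes did): Asns, Ppp1r15a and Chac1 were higher in replicate 2, and Ddit3 was 2.22-fold lower. In siPwp1, replicate 2 was higher for 4 and lower for 5, and Chac1 and Slc7a11 differed by 2-fold or more (23.8% of all genes did). Trib3, Psat1 and Ppp1r15a were higher in replicate 2 of both groups, 3 of 9, where 31.2% of all genes were. Krt8, Gata3, Cdx2 and Sox2 were lower in replicate 2 of both groups, as Ddit3 was, and their part in these differences was not tested. In siControl Ddit3 was thus low where Asns, Ppp1r15a and Chac1 were high. With 4 libraries no correlation was computed.

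**Figure D3:**
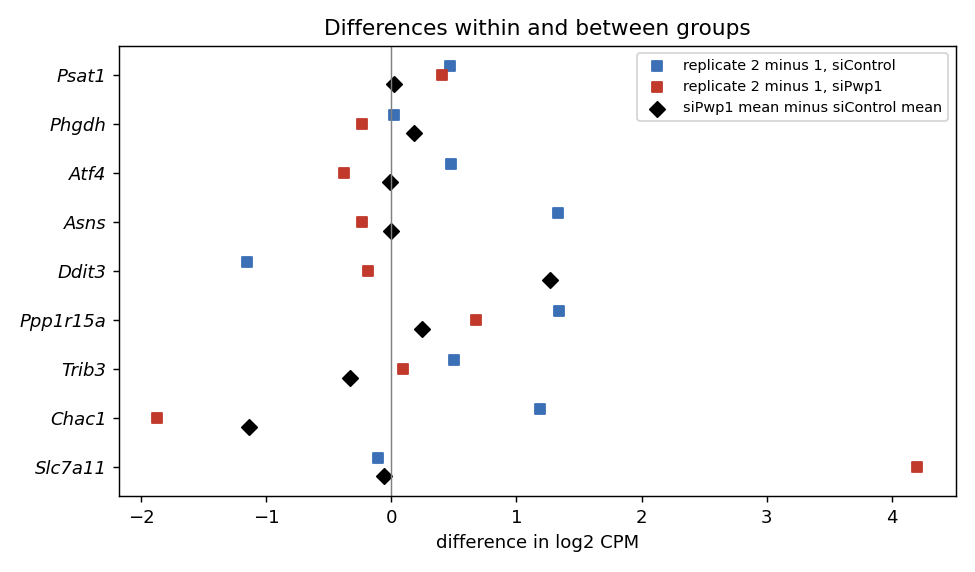
Differences in log2 CPM for the 9 tested genes: squares show replicate 2 minus replicate 1 within siControl (blue) and siPwp1 (red), and diamonds the siPwp1 mean minus the siControl mean. Ddit3 is the gene whose diamond (1.27) lies further from 0 than both squares, and the siPwp1 square of Slc7a11 (4.21) comes from 2 and 22 counts.

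The other genes of the pathway, 93 in 9 lists by role, were read in the same way. Of the 91 tested, edgeR called 0 higher and 0 lower (0% of all genes), 1 was higher and 2 were lower at unadjusted p under 0.05 (1.84% and 0.824% of all genes), and DESeq2 called 0. Both siPwp1 libraries were above both siControl libraries for 10 of the 91 (11.0%, against 14.7% of all genes) and below for 13 (14.3%, against 14.1% of all genes). The median log2 fold change was -0.07.

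The sensors at the top of the response were present at modest levels, and none passed the test. Eif2ak1 (HRI, which senses heme and mitochondrial stress) had the highest TPM of the 4 kinases, from 6.15 to 11.1 TPM over the libraries. Eif2ak3 (PERK, the endoplasmic reticulum sensor) ran from 1.76 to 2.97 TPM and Eif2ak4 (GCN2, which senses uncharged tRNA) from 0.5 to 2.05 TPM. Eif2ak2 (PKR, the sensor of double-stranded RNA) had at most 0.26 TPM. Eif2ak4 was at 5.59 and 9.21 CPM under siControl, and under siPwp1 at 2.43 and 5.35 CPM. Its siPwp1 libraries were both lower, but by as little as 5.59 against 5.35 CPM (161 counts in each of siControl replicate 1 and siPwp1 replicate 2). The log2 fold change of Eif2ak4 was -0.93 (SE 0.559; edgeR unadjusted p = 0.14). It was -0.47 without siPwp1 replicate 1 and -1.60 without siPwp1 replicate 2.

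Dele1, listed under its older name 0610009O20Rik, carries the mitochondrial stress signal to HRI. It was at 2.74 and 3.09 CPM under siControl, and under siPwp1 at 1.03 and 0.897 CPM. Both siPwp1 libraries were about 3-fold lower, with a log2 fold change of -1.59 (SE 0.655; edgeR unadjusted p = 0.0459, adjusted p = 0.9998). Oma1, the protease that cleaves DELE1, was at 10.9 and 16 CPM under siControl, and under siPwp1 at 16 and 10.3 CPM, and the groups overlapped. Gcn1l1, a GCN2 activator, had a log2 fold change of 0.11, and Impact, a GCN2 inhibitor, one of -0.48. Both overlapped between groups. Of the 8 genes in this list, 0 were higher and 2 lower in both siPwp1 libraries, where 14.7% of all genes were higher and 14.1% lower.

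Downstream of the kinases the spread was narrow. A list of 13 genes held subunits of eIF2, eIF2B and the eIF2 phosphatases, and Eif2a, which encodes a separate initiation factor. Their log2 fold changes lay between -0.54 and 0.23, with a median of -0.06, and 0 passed the test. In both siPwp1 libraries 4 were lower (30.8%, against 14.1% of all genes) and 0 were higher (against 14.7% of all genes). They were Ppp1r15b, the constitutive counterpart of GADD34 (44.8 and 38.5 CPM against 29.7 and 27.7 CPM), the phosphatase subunit gene Ppp1cb (216.2 and 181 against 162.6 and 145.4 CPM), Eif2s3x (345 and 370.2 against 250.1 and 298.2 CPM) and Eif2b5 (124.4 and 131 against 121 and 98.2 CPM). In TPM the groups overlapped for Eif2b5 (53.35 and 60.58 against 53.43 and 45.05 TPM). Ppp1r15b had the smallest unadjusted p of the list, 0.105 with edgeR. Of the phosphatase-targeting pair, Ppp1r15a had a positive and Ppp1r15b a negative estimate. The difference between them was not tested.

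None of 8 genes listed as bZIP partners of ATF4 separated the groups, where 14.7% of all genes were higher and 14.1% lower. Nupr1 was in this list, and in that of the stress effectors, but does not encode a bZIP factor. Cebpa had a log2 fold change of -0.26 and Nfe2l2, which encodes NRF2, of -0.34. Nupr1 and Cebpb followed the replicate number. Nupr1, a stress-induced chromatin protein gene, was at 6.11 and 54.9 CPM under siControl, and under siPwp1 at 9.96 and 45.03 CPM. Cebpb was at 2.43 and 14.7 CPM under siControl, and under siPwp1 at 3.09 and 10.8 CPM. For both genes the libraries numbered 2 were at least 3-fold above those numbered 1 in each group, and the siRNA groups overlapped.

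Amino acid transporters and synthesis enzymes of the ATF4 program were likewise mixed. Of 7 transporters tested, Slc38a2, a glutamine carrier, was higher in both siPwp1 libraries (7.39 and 9.01 against 13.3 and 12.6 CPM; log2 fold change 0.65, edgeR unadjusted p = 0.126). Slc7a3, a carrier of cationic amino acids, was lower in both (1.32 and 3.55 against 0.91 and 0.598 CPM). Of 11 genes of serine, one-carbon and amino acid synthesis, Gpt2, an alanine transaminase, was higher in both (4.27 and 3.57 against 5.34 and 12.3 CPM) and Mthfd2, a mitochondrial folate enzyme, lower in both (28.7 and 32.5 against 25.6 and 25.6 CPM). Each list thus had 1 gene separated in each direction, 14.3% of the transporters and 9.09% of the synthesis genes. Over all genes 14.7% were higher and 14.1% lower. The median log2 fold changes of the lists were -0.31 and 0.07, and 0 genes passed.

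Stress effectors held the largest count of separated genes. Of 13 tested, 5 were higher in both siPwp1 libraries (38.5%, against 14.7% of all genes) and 1 was lower (7.69%, against 14.1% of all genes). The list had a median log2 fold change of 0.38 and 0 calls by edgeR or DESeq2. Vegfa, the angiogenic factor gene, was at 0.521 and 1.39 CPM under siControl, and under siPwp1 at 2.93 and 4.72 CPM. Its log2 fold change was 1.99 (SE 0.737; edgeR unadjusted p = 0.0316, adjusted p = 0.9998), and ran from 1.46 (without siControl replicate 1) to 2.86 (without siControl replicate 2). The hormone gene Stc2 was at 0.0694 and 0.637 against 0.93 and 1.56 CPM, and the cytokine gene Gdf15 at 0.312 and 0.273 against 0.891 and 0.697 CPM. The death genes Bbc3 (1.67 and 1.39 against 3.58 and 2.16 CPM) and Tnfrsf10b (17.4 and 21.8 against 22.1 and 28.8 CPM) complete the 5. In TPM the groups overlapped for Tnfrsf10b (5.88 and 7.91 against 7.69 and 10.37 TPM). Counts were low for Stc2, with 2 in siControl replicate 1, and for Gdf15, with 9 and 12 in siControl. Bbc3, Tnfrsf10b and Gdf15 are also known targets of p53, and Vegfa of hypoxia signalling, so this list is not particular to ATF4. The gene lower in both was Herpud1, of endoplasmic reticulum protein degradation, at 4.65 and 4.78 against 2.77 and 1.63 CPM. Gadd45a overlapped, with a log2 fold change of 1.19 that ran from 0.23 (without siPwp1 replicate 2) to 2.02 (without siControl replicate 1).

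Genes of glutathione synthesis and NRF2 targets all had negative estimates, 8 of 8. Their median log2 fold change was -0.42, against -0.0010 over all genes. Only Srxn1 was lower in both siPwp1 libraries (12.3 and 9.69 against 9.32 and 5.25 CPM), and 0 passed the test. That is 12.5% of the list, against 14.1% of all genes. Gss had the smallest unadjusted p, 0.0625 with edgeR, and its log2 fold change moved from -1.40 to -0.24 without siControl replicate 1. The same list was lower in replicate 2 than in replicate 1 within each group, by a median of -0.80 on the log2 scale for siControl and of -0.95 for siPwp1, both of them further from 0 than the median difference between groups.

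The aminoacyl-tRNA synthetases, many of which ATF4 induces, differed little. The 12 genes had log2 fold changes from -0.30 (Gars) to 0.25 (Iars), with a median of -0.11, and 10 were negative and 2 positive. In both siPwp1 libraries 1 was higher (8.33%, against 14.7% of all genes) and 2 were lower (16.7%, against 14.1% of all genes). The 12 genes of chaperones and of the other branches of the unfolded protein response had a median of 0.0034. In both siPwp1 libraries 2 were higher (16.7%, against 14.7% of all genes) and 1 was lower (8.33%, against 14.1% of all genes). The higher ones were Creld2 (41.6 and 47.5 against 58.7 and 52.1 CPM) and Sdf2l1 (12.2 and 11.3 against 12.9 and 12.3 CPM), both genes of endoplasmic reticulum proteins. The lower one was Xbp1, the factor of the IRE1 branch, which was at 36.7 and 32.4 CPM under siControl, and under siPwp1 at 20.7 and 20.7 CPM. Its log2 fold change was -0.74 (SE 0.3; edgeR unadjusted p = 0.044, adjusted p = 0.9998).

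**Figure D4:**
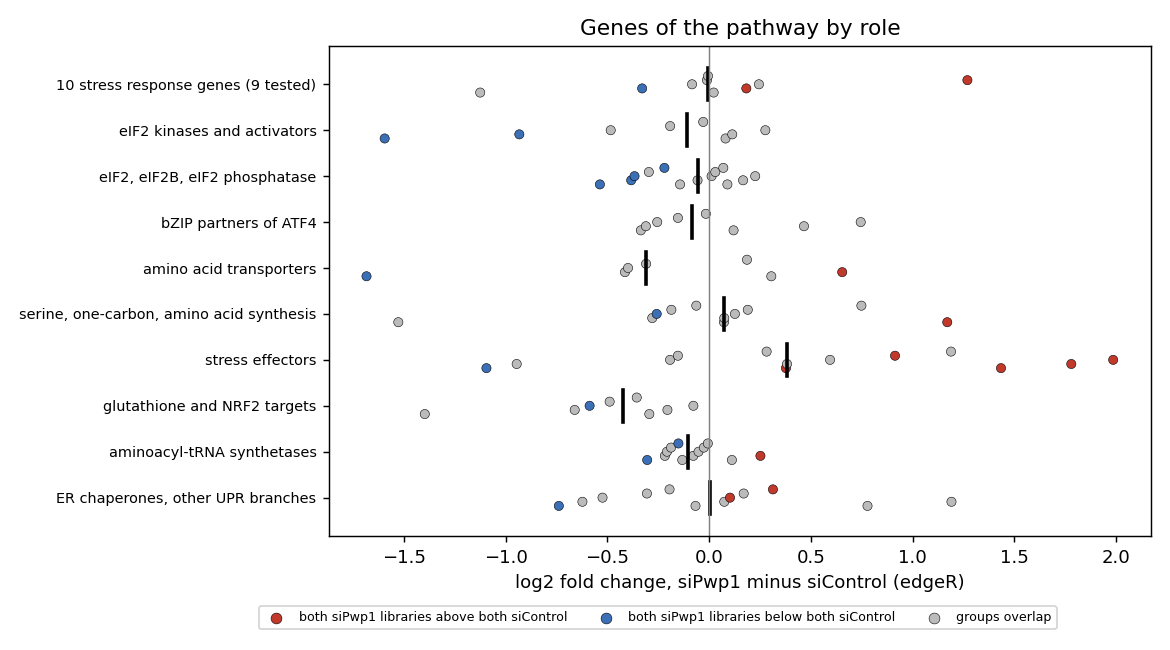
Fitted log2 fold change of each tested gene, siPwp1 minus siControl, by list, with bars at list medians; red points are genes with both siPwp1 libraries above both siControl libraries, blue points the reverse, and grey points overlap. List medians run from -0.42 (glutathione and NRF2 targets) to 0.38 (stress effectors), and the red points of the stress effectors number 5.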

How the data were processed

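The authors deposited, per the file headers, RSEM expected counts, TPM and FPKM for each library, made per the submitters' processing notes with STAR 2.7.10 and RSEM 1.3.3 on mm10. Libraries were SMART-Seq from polyadenylated RNA, per the labels' protocols. For strand setting and annotation release: not given in the sources used here. If reads were not stranded, opposite-strand overlaps share reads. Lengths of such overlaps are given just for the integrated stress response genes. Beyond those given above, they were 556 bases for Psat1 (Gm3329), 108 bases for Atf3 (Gm24748) and 15 bases for Ddit3 (Gm4189). Many genes of the other lists also overlap a gene on the other strand, among them Dele1, Psph, Gss, Eif2ak1, Herpud1, Cebpb, Ppp1cb and Ppp1r15b. Others, such as Eif2ak4, Vegfa and Xbp1, do not. The part of shared reads in their values was not tested. FPKM, deposited by the authors, were not used.

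Expected counts were rounded and tested with edgeR 4.0.16 (R 4.3.3) quasi-likelihood, group as the single term, filterByExpr (minimum count 10), TMM, two-sided, threshold 0.05. Each SE is the absolute log2 estimate divided by the root of F. Of 24411 genes, 13585 were tested. CPM use TMM-scaled totals, and 3 counts are 0.0594 to 0.104 CPM. Alternatives were other filters, scalings, DESeq2 1.42.0, limma 3.58.1 on log2 of the authors' TPM, a replicate block and each library left out. Positions are GENCODE M21 (GRCm38). No label tells whether replicates came from different cultures, and p-values reflect just the spread of these libraries, which may be technical.

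Members and lists were chosen with earlier results of these data known. Named genes were the members, Pwp1, eIF2 kinase list genes of 5 CPM or more and up to 3 genes per list of smallest p. Eif2ak2, Psph, Slc3a2, Mars, Nupr1, Cebpb, Mthfd2, Eif2b5, Stc2, Gdf15, Bbc3, Tnfrsf10b, Creld2 and Sdf2l1, and the markers named, were added after their values were seen.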

Additional observations from a re-analysis of the deposited data

How the results depend on the processing

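Across the alternatives, 0 of the 10 stress response genes and 0 of the other pathway genes were called. Over all genes, calls were 99 higher and 7 lower with no filter, 42 and 2 with DESeq2, 2 and 0 with limma on log2(TPM + 0.1), and 5 to 130 higher (without siControl replicates 1 and 2) and 1 to 18 lower (without siControl replicate 1 and siPwp1 replicate 1) with 1 library left out. Pwp1 was lower in every fit.

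Replicate numbers are shared by label only. Across genes, the replicate difference in siControl correlated with that in siPwp1 at 0.47. With the replicate number as a block, 71 genes were called higher and 9 lower, Ddit3 had an adjusted p = 0.236, and the log2 fold change was 0.14 for Asns, 0.19 for Nupr1 and -0.44 for Eif2ak2.

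The separated genes of the set became 0 on the lower side at 5 CPM in at least 2 libraries, where Trib3 was not tested, and with DESeq2 size factors or TPM. With a library left out they were 2 to 6 higher and 1 to 5 lower, since a lone library separates more easily. For the other pathway genes they were 6 higher and 8 lower at 5 CPM, where fewer genes are tested, and 18 to 37 higher and 19 to 38 lower with a library left out.

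Signs near 0 turned. At 5 CPM the log2 fold change was 0.031 for Atf4, 0.038 for Asns and 0.015 for Oma1. With limma on log2(TPM + 1) it was 0.018 for Atf4, 0.14 for Asns and 0.23 for Nupr1, and with 0.1 in place of 1 it was 0.019, 0.15 and 0.25. The cause was not tested.

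With a library left out, the log2 fold change kept its sign for Ddit3 (0.80 to 1.95), Phgdh, Trib3 and Chac1, and ran as follows where it turned: Atf4 -0.23 to 0.25, Asns -0.52 to 0.81, Psat1 -0.19 to 0.27, Ppp1r15a -0.27 to 1.06, Slc7a11 -3.24 to 0.86, Impact -0.95 to 0.20, Eif2ak1 -0.033 to 0.67, Eif2ak3 -0.59 to 0.13, Oma1 -0.38 to 0.28, Psph -0.18 to 0.38, Slc3a2 -0.20 to 1.08, Mars -0.60 to 0.087, Nupr1 -1.61 to 2.16, Cebpb -1.46 to 1.5, Eif2ak2 -4.38 to 2.78, Krt8 -2.29 to 2.15, Gata3 -2.13 to 0.52 and Cdx2 -3.28 to 0.65. Without turning, Slc7a3 ran from -2.22 to -0.80, Gpt2 from 0.45 to 1.65, Stc2 from 0.96 to 4.09, Bbc3 from 0.50 to 1.24 and Herpud1 from -1.53 to -0.76. Low counts and the spread between libraries of a group limit Atf3, Chac1 and Slc7a11.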
